A study of Mus musculus with 4 samples.

Results

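The genes described are 9 cathepsins and their secreted inhibitor cystatin C, namely Ctss, Ctsl, Ctsk, Ctsb, Ctsh, Ctsc, Ctsz, Ctsd, Ctsa and Cst3. They were taken by name, not by their values, and are 10 of the 10924 genes that had a summed value in at least 1 of the deposited transcript lists. RNAseq was made from primary 4T1 tumors and from Tregs sorted out of such tumors by their green fluorescence. The hosts were female Foxp3+EGFP Balb/c mice, 8 weeks of age, that had received 4T1 cells (a mammary carcinoma line from the same strain) in the mammary fat pad. In these mice cells that express Foxp3 also express EGFP. The tumors were treated in vivo for 12 days with Control SMO or with LFPRLR SMO. An SMO is a splice modulating oligomer, and the LFPRLR SMO lowers the long form of the prolactin receptor (LFPRLR) while leaving the short forms. RNA from 6 mice was combined per treatment, so that each of the 4 groups (whole tumor and tumor Treg, each with Control SMO or LFPRLR SMO) was 1 library. There was no replicate check for any difference given here, and no SD or p-value can be calculated.

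Cathepsins are proteases, most of which work in the acid interior of lysosomes and endosomes. Most belong to the papain family and cut proteins with an active-site cysteine, whereas cathepsin D is an aspartic protease and cathepsin A is a serine carboxypeptidase. Macrophages and other phagocytes are rich in them. In antigen-presenting cells they trim proteins and the invariant chain that blocks the groove of MHC class II, and in tumors, secreted cathepsins can cut the extracellular matrix. Cystatin C, the product of Cst3, is secreted and binds tightly to the active site of papain-family cathepsins.

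The values labelled tumor Treg need a statement before any result. All 4838 transcripts deposited under the Control SMO label equalled those under the LFPRLR SMO label, so there was a single set of values and no ratio between treatments. That set also went against its label. None of 20 T cell markers and none of 12 Treg markers was listed, with Cd3e, Cd4, Foxp3, Il2ra and Ctla4 among those at 0. However, 23 of 24 monocyte and macrophage markers were listed, with a total FPKM (fragments per kilobase of transcript, scaled to the library total) of 698. The highest of these was Apoe at 231, and Cd163 was the single marker not listed. The listed transcripts had a summed TPM of 852805 where a full list would have 1000000, so a gene that is not listed has not been shown to be absent. The values are called tumor Treg below because that is their label.

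In the annotation (GRCm38) Cst3 lies on chr2:148871722-148875692 (minus strand), Ctsa on chr2:164832873-164841032 (plus), Ctsz on chr2:174427493-174439039 (minus), Ctsk on chr3:95499256-95509362 (plus) and Ctss on chr3:95526786-95556403 (plus). Ctsc lies on chr7:88278085-88310888 (plus), Ctsd on chr7:142375911-142388038 (minus), Ctsh on chr9:90054152-90076089 (plus), Ctsl on chr13:64359337-64370890 (minus) and Ctsb on chr14:63122462-63145923 (plus).

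Several members were deposited in pieces, and the place of the break bears on their values. The whole tumor lists hold transcripts assembled by Cufflinks. In the tumor Treg list the members' transcripts carry a reference gene name, except for a shorter one of Ctsc. Their exons can follow the annotation, so a junction spliced in that list was not shown to have reads across it. In the principal annotated transcripts of the 10 genes there are 78 exon junctions. Assembled transcripts spliced 72 of them with Control SMO, and also 72 with LFPRLR SMO. Ctsb, Ctsd, Ctsh, Ctsz and Cst3 had every junction spliced in both lists. The other 5 genes held the 8 junctions that were not spliced in at least 1 whole tumor list. For Ctsl, Ctsk, Ctss and Ctsc, 1 such junction was the one just before the codons of the active-site cysteine. The sequences below are shown because the genes are split at this place. They are coding sequence from the GENCODE M21 transcripts (GRCm38), read 5′ to 3′, with the last 20 bases of the upstream exon in lower case and the first 20 bases of the downstream exon in capitals.

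Ctsl, exons 5 and 6, intron chr13:64367093-64367859, minus strand: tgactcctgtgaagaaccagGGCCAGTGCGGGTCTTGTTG

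Ctsk, exons 4 and 5, intron chr3:95501707-95502581, plus strand: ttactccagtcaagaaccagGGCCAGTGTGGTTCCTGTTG

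Ctss, exons 4 and 5, intron chr3:95543163-95545332, plus strand: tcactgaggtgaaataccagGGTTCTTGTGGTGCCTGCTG

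Ctsc, exons 5 and 6, intron chr7:88302301-88308012, plus strand: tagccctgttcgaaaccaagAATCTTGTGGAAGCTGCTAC

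The junction follows 396 of 1002 coding bases in Ctsl, 399 of 987 in Ctsk, 423 of 1020 in Ctss and 754 of 1386 in Ctsc. Ctsl and Ctsk were identical at 34 of the 40 bases shown, Ctsl and Ctss at 25, and Ctsk and Ctss at 27. The pattern TGNGG, 4 further bases and TGNT, where N is any base, spans the codons around the active-site cysteine. It was searched on the coding strand in the 20 bases after each of the 78 junctions. It was found after 5 of them, the 4 shown and the corresponding junction of Ctsh, which was spliced in all lists. Whether any reads fit both genes of a pair was not tested, and how the aligner placed such reads is not given in the sources used here.

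Ctsl, which encodes an endopeptidase with a part in antigen processing and matrix turnover, shows what the break does. With Control SMO it was 1 transcript of 1284 bases in 8 exons at an FPKM of 81.8. With LFPRLR SMO it was a 5′ piece of 487 bases at 141 and a 3′ piece of 899 bases at 42.6, and the junction between them was in neither. The Control SMO level lay between those of the pieces. In the tumor Treg values Ctsl was a single transcript of 1971 bases at 30.4.

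Ctss, the endopeptidase best known for the last steps of invariant chain removal, was split at the same junction in both whole tumor lists. With Control SMO the 5′ piece (522 bases) was at an FPKM of 79.1 and the 3′ piece (981 bases) at 54.9. With LFPRLR SMO the 5′ part was listed as 2 transcripts of 532 and 535 bases, at 46.3 and 5.4, and the 3′ piece (800 bases) was at 53.6. By FPKM the 3′ pieces thus differed less between the treatments than the 5′ pieces. By the midpoint of the deposited confidence bounds the 5′ part was at 45.4 (Control SMO) and 51.6 (LFPRLR SMO), so its direction turned. The 3′ pieces were at 43.1 and 40.4 by the midpoint.

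The paired 5′ transcripts of Ctss differ by 3 bases at the start of exon 2. Both forms are annotated, and the junction of exons 1 and 2 lies in coding sequence, so the longer form has 1 codon more. In the sequences below, the last 20 bases of exon 1 and 20 bases of exon 2 are in lower case and the extra codon is in capitals.

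Ctss-201, exon 2 starting at chr3:95529434, plus strand: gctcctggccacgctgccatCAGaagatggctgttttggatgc

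Ctss-202, exon 2 starting at chr3:95529437, plus strand: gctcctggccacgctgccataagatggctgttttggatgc

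The form without the extra codon carried 89.6% of the FPKM across this junction in the LFPRLR SMO tumor (46.3 against 5.4). In the tumor Treg values its share was 82.7% (47.4 against 9.94). With Control SMO it was the sole form assembled, at 79.1. The reads behind each form are not given, so no interval can be placed on these shares.

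Ctsk, the collagen-cutting cathepsin of osteoclasts that fibroblasts and macrophages can also make, was whole with Control SMO, as 1 transcript of 1398 bases at an FPKM of 3.17. With LFPRLR SMO it was a 5′ piece of 501 bases at 5.54 and a 3′ piece of 946 bases at 3.51. Both pieces were above the Control SMO value, and the longer one was close to it. No tumor Treg transcript overlapped Ctsk, although its neighbour Ctss, which starts 17423 bases further along chromosome 3, was at 57.3 there.

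Ctsc encodes the dipeptidyl peptidase that activates the serine proteases of neutrophils and cytotoxic cells. It was broken with Control SMO and whole with LFPRLR SMO. The Control SMO list had an upstream piece of 480 bases, from exon 2 on, at an FPKM of 45.2, a 3′ piece of 972 bases at 37.8, a single-exon transcript of 418 bases at 10.9, and one of 215 bases at 66.4 that fell under the minimum of 300 bases. The first junction was also not joined there. With LFPRLR SMO a transcript of 1852 bases spliced all 6 junctions at 25.4, beside single-exon transcripts of 598 and 460 bases at 11.6 and 7.96. Over the coding sequence the Control SMO values were uneven, at 9.69 in the first coding exon, 45.2 in the third, 5.85 in the fifth and 37.8 in the last. The first of these came from a single-exon transcript over exon 1 that shared too few of its bases to be assigned to the gene. With LFPRLR SMO the value was 25.4 throughout, because 1 transcript with a single FPKM covered all coding exons. It does not show how even the depth was.

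Ctsa encodes protective protein/cathepsin A, which also stabilizes other lysosomal enzymes. An intron of 89 bases between its exons 5 and 6 (chr2:164834749-164834837) lay inside an exon of the single Control SMO transcript (1921 bases, FPKM 13.9). With LFPRLR SMO the gene was broken at that intron into pieces of 386 bases at 11.6 and 1410 bases at 8.38. Both pieces were below the Control SMO value. In the tumor Treg values the intron was spliced.

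**Figure D1:**
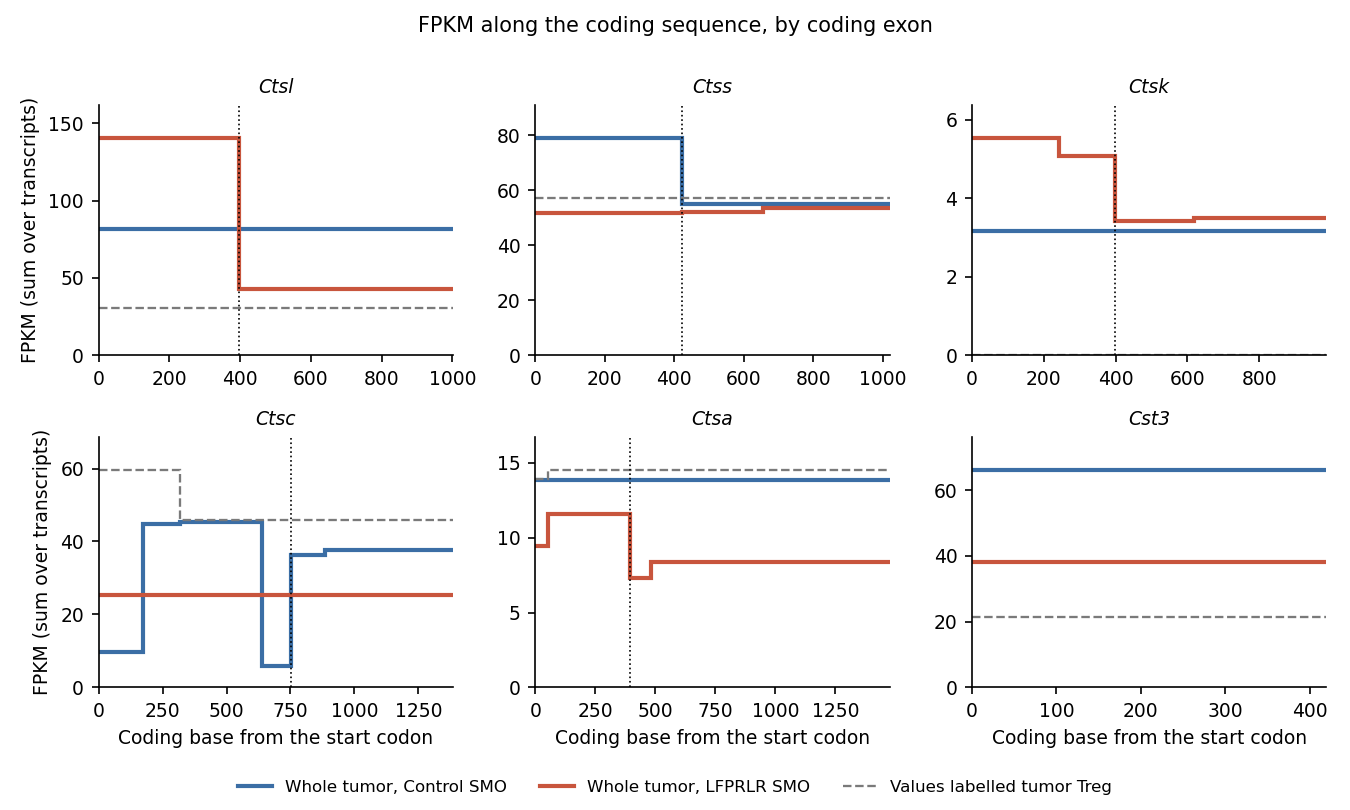
FPKM summed over transcripts (y axis, linear from 0) along the coding sequence in bases from the start codon (x axis), averaged per coding exon, for 6 members in whole tumor with Control SMO (blue), whole tumor with LFPRLR SMO (red) and the values labelled tumor Treg (dashed grey). Dotted lines mark the exon junctions discussed, and Ctsl with LFPRLR SMO drops from 141 to 42.6 there. Cst3, which was assembled whole, is at 66.2, 38.2 and 21.3. Its lines are flat because a transcript has the same FPKM over all its exons. They do not show how even the depth was, and in the tumor Treg values the exon depth of Cst3 ran from 0 to 49.5.

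Because a gene in 2 pieces gets the sum of both in a summed FPKM, each member is given by a second measure as well. The coding-base FPKM is the mean, over the coding bases of the principal annotated transcript, of the FPKM of all transcripts that cover each base, so pieces side by side are averaged rather than added. Unlike the summed FPKM, it also counts transcripts under 300 bases and overlapping transcripts that were not assigned to the gene. This holds for the members and for all genes set beside them. The coding-base measure was chosen after the values had been seen. FPKM is scaled to transcript length, but FPKM of short transcripts ran high in both whole tumor lists, which limits a comparison of levels between genes. It also limits a comparison of treatments for a gene in pieces in 1 list, and averaging over coding bases does not remove it. For Ctsl, FPKM was 1.19 times the midpoint of the bounds with Control SMO, and 1.80 (5′) and 1.28 (3′) times for the LFPRLR SMO pieces. The median FPKM was 1.46 (Control SMO) and 1.37 (LFPRLR SMO) times the midpoint of the deposited confidence bounds for transcripts of 300 to 600 bases, and 1.001 and 1.001 times for those of 2000 bases or more. Of the members' transcripts, 4 of 13 with Control SMO and 10 of 18 with LFPRLR SMO lay inside their own bounds, and the others lay above them. Among all transcripts of at least 300 bases, 94.8% and 96.1% lay inside. The members' bounds are therefore not given as errors.

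By coding-base FPKM the members were among the more abundant genes, except for Ctsk. With Control SMO the order was Ctsl (81.8), Cst3 (66.2), Ctss (65.0), Ctsb (50.9), Ctsd (37.0), Ctsc (33.95), Ctsz (27.5), Ctsh (25.8), Ctsa (13.9) and Ctsk (3.17). With LFPRLR SMO it was Ctsl (81.3), Ctss (52.5), Ctsb (39.6), Cst3 (38.2), Ctsd (30.7), Ctsc (25.4), Ctsh (22.3), Ctsz (15.0), Ctsa (9.09) and Ctsk (4.24). Ctsl was highest, and Ctsa and Ctsk were in places 9 and 10, in both tumors. Cst3 moved from place 2 in the Control SMO tumor to place 4 in the other, and Ctsz in places 7 and 8. With 1 library per group there is no spread by which neighbours in either order could be told apart. The members other than Ctsk lay between percentiles 90.2 and 98.4 of the listed genes with Control SMO and between 87.5 and 98.9 with LFPRLR SMO, whereas Ctsk was at 48.4 and 66.6.

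In the tumor Treg values the order was different. Ctsd, an aspartic endopeptidase of the lysosome and a common marker of its content, was first at 67.8. It was followed by Ctss (57.3), Ctsc (49.1), Ctsz (33.6), Ctsb (31.2), Ctsl (30.4), Cst3 (21.3), Ctsa (14.5) and Ctsh (12.6), and Ctsk was not listed. Ctsd was at percentile 99.0 of the genes listed there and Ctsl at 96.3. Ctsd, Ctsc, Ctsz and Ctsa were at a higher coding-base FPKM than in either whole tumor, and Ctsl, Ctsb, Ctsh and Cst3 at a lower one. By summed FPKM this did not hold for Ctsc (59.7 against 93.9 with Control SMO) and Ctsa (14.5 against 19.9 with LFPRLR SMO). The whole tumor and tumor Treg values came from different assemblers and were normalized separately, so these levels are set side by side as a description.

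**Figure D2:**
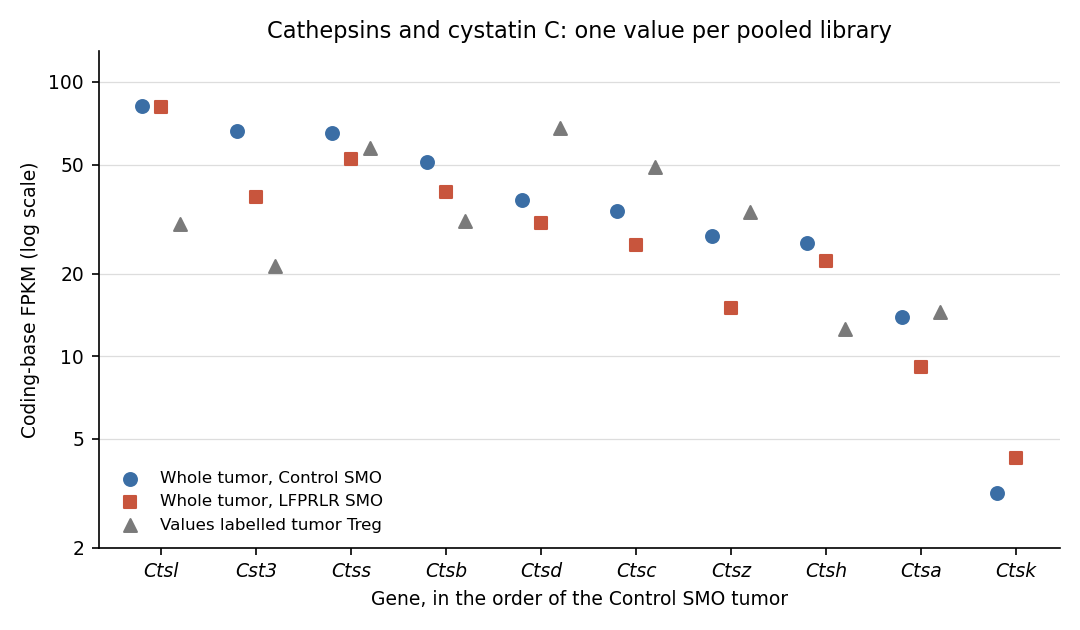
Coding-base FPKM (y axis, log scale) of the 10 members (x axis, ordered by the Control SMO tumor) in whole tumor with Control SMO (circles) and LFPRLR SMO (squares) and in the values labelled tumor Treg (triangles), with one point per pooled library and no error bars because there are no replicates. LFPRLR SMO is below Control SMO for all but Ctsk, by little for Ctsl (81.3 against 81.8), and no triangle is drawn for Ctsk, which was not listed.

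The comparison of LFPRLR SMO with Control SMO in whole tumor sets the lysosomal proteases of a tumor given the LFPRLR oligomer beside those of a control tumor. By coding-base FPKM, 9 of the 10 members were lower with LFPRLR SMO, and none was past a factor of 2 in either direction. Over the 8728 genes with at least 1 in either library, 67.3% were lower at all, 5.56% were higher by a factor of 2 and 11.8% were lower by a factor of 2, so lower values were the common case. The median log2 ratio, log2((LFPRLR SMO + 0.1)/(Control SMO + 0.1)), was -0.33 for the members and -0.20 for all these genes. Relative to the latter, 8 members were lower and 2, Ctsk and Ctsl, were higher. With the midpoint of the bounds in place of the FPKM, 7 of the 10 members were lower at all. The share of all genes lower by the midpoint is not given.

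By coding-base FPKM the largest differences were in Ctsz and Cst3. Ctsz, a carboxypeptidase that has been tied to cell adhesion, was at 27.5 in the Control SMO tumor and 15.0 in the LFPRLR SMO tumor (log2 ratio -0.87). Cst3 was at 66.2 and 38.2 (-0.79). Each gene was 1 transcript with all junctions spliced in both lists, so their ratios were the same by both measures. With the midpoint of the bounds in place of the FPKM, they were -0.69 and -0.68. These ratios were at percentiles 14.0 and 15.9 of all genes tested, so they did not stand outside the range of other genes.

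Ctsa came next, at 13.9 and 9.09 (-0.61), and by the midpoint its ratio was -0.85, below those of Ctsz and Cst3. Ctsc followed at 33.95 and 25.4 (-0.42), which rests on the broken Control SMO transcripts, and with the midpoint of the bounds its ratio was 0.021. Ctsb, the abundant endopeptidase and dipeptidase that is often raised at the invading edge of tumors, was at 50.9 and 39.6 (-0.36). Ctss was at 65.0 and 52.5 (-0.31), and 0.023 by the midpoint. Ctsd (37.0 and 30.7, -0.27) and Ctsh, an aminopeptidase (25.8 and 22.3, -0.21), stood nearest to the median gene. Ctsl was nearly equal in the libraries by this measure (81.8 and 81.3, -0.0083), though its ratio was -0.43 by the midpoint. Ctsk was the sole member with a higher value (3.17 and 4.24, 0.41), and its ratio was 0.083 by the midpoint.

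By summed FPKM the picture differed for the genes in pieces. Ctsk (3.17 and 9.06, log2 ratio 1.49) and Ctsl (81.8 and 183, 1.16) were higher by a factor of 2, and Ctsc (93.9 and 44.9, -1.06) was lower. Ctsa turned to higher (13.9 and 19.9, 0.52). Among 10408 genes with a summed FPKM of at least 1, 18.3% were higher and 16.6% lower by a factor of 2, and 53.7% were lower at all, against 7 of the 10 members. The 3 calls among members were all in genes broken at the junction before the active-site cysteine in 1 list and whole across it in the other. Ctss, broken there in both lists, was at 134 and 105 (-0.35). For Ctsd, Ctsh, Ctsz and Cst3 both measures gave the same ratio, and Ctsb was at -0.26 summed against -0.36 over coding bases.

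**Figure D3:**
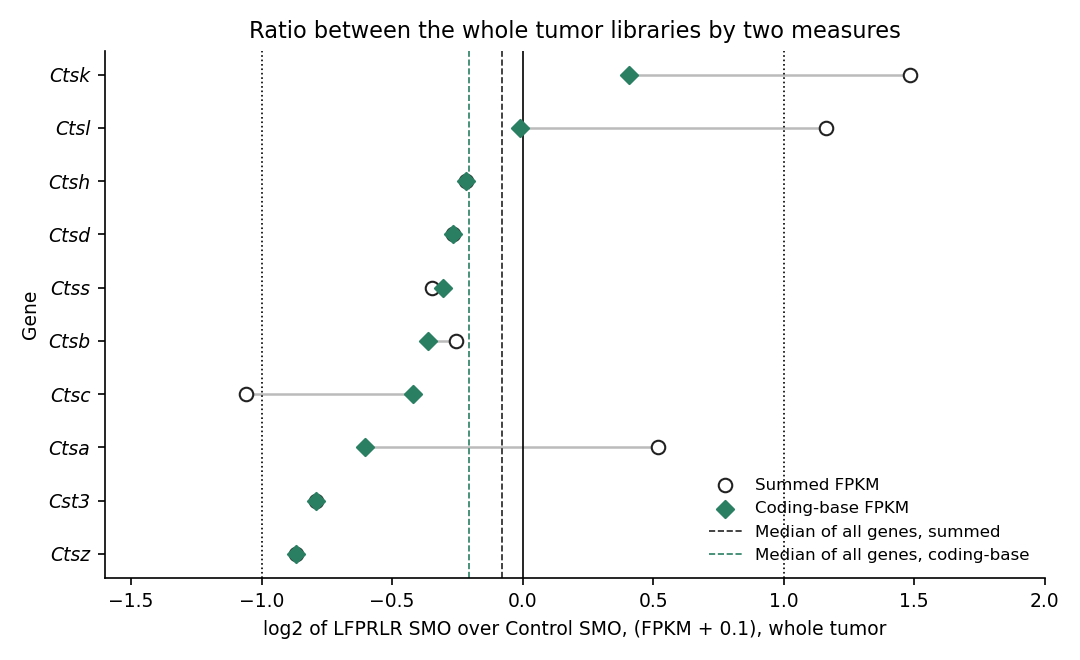
The log2 ratio of LFPRLR SMO over Control SMO in whole tumor, (FPKM + 0.1), (x axis) for each member (y axis), by summed FPKM (open circles) and coding-base FPKM (filled diamonds). Solid and dotted vertical lines mark a log2 ratio of 0 and a factor of 2, and dashed lines mark the median of all genes by each measure. Ctsk moves from 1.49 to 0.41, Ctsl from 1.16 to -0.0083 and Ctsa from 0.52 to -0.61, while Ctsz and Cst3 stay at -0.87 and -0.79.

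Inhibitor and proteases can be set against each other within a library. The 7 papain-family cathepsins (Ctsb, Ctsc, Ctsh, Ctsk, Ctsl, Ctss and Ctsz) summed to a coding-base FPKM of 288 with Control SMO, 240 with LFPRLR SMO and 214 in the tumor Treg values. For each 100 units of these there were 23.0, 15.9 and 9.93 units of Cst3. By the midpoint of the bounds the whole tumor values were 20.3 and 15.2. Cst3 was thus lower relative to the cathepsins with LFPRLR SMO by both measures, without a replicate to set an error. Of 20 other cystatins and stefins in the annotation, 1 was listed in whole tumor. It was Cstb, the cytosolic inhibitor stefin B, which was at 50.2 in the Control SMO tumor and 27.1 in the LFPRLR SMO tumor (-0.89). In the tumor Treg values it was at 11.3, and Stfa3 was also listed there, at 2.32. Csta1 was not listed in any set.

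Monocyte and macrophage markers were lower in the same direction. All 24 were listed with Control SMO and 23 with LFPRLR SMO, where Ms4a7 was at 0. Their coding-base FPKM totalled 576 in the Control SMO tumor and 380 in the LFPRLR SMO tumor (0.660 times), against 405 and 318 (0.786 times) for the 10 members. Of the 24, 21 were lower at all, 3 by a factor of 2, and the median log2 ratio was -0.52. Apoe, the highest of them, was at 206 and 121, followed by Lyz2 at 110 and 76.1, so both weigh heavily in the totals. Fewer cells of a type and less RNA per cell cannot be told apart in bulk tumor, and the part of the macrophage markers in the members' ratios was not tested. For each 100 units of these markers, Cst3 was at 11.5 in the Control SMO tumor and 10.1 in the LFPRLR SMO tumor, Ctsz at 4.77 and 3.95, Ctsa at 2.41 and 2.39, Ctsl at 14.2 and 21.4, and Ctss at 11.3 and 13.8. Ctsb, Ctsc, Ctsd, Ctsh and Ctsk were also higher per unit of these markers with LFPRLR SMO. The Ctsl value with LFPRLR SMO rests largely on its 5′ piece at 141, which lay above its upper bound of 87.7. By the midpoint of the bounds the log2 ratio of Ctsl was -0.43.

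Other parts of the lysosome are given by group, in coding-base FPKM, Control SMO first, with the summed FPKM where the call differs. Of the other lysosomal hydrolases 32 of 36 passed the minimum of 1, and 1 was higher and 4 lower by a factor of 2 (2 and 4 of 34 by summed FPKM), with a median log2 ratio of -0.36. Legumain (Lgmn), the asparaginyl endopeptidase that processes several cathepsins to their mature forms, was at 26.7 and 19.7 in whole tumor, and at 27.3 in the tumor Treg values. Acid ceramidase (Asah1) was at 19.7 and 16.2. Smpd1 and Hexa had the largest summed differences (-1.41 and -1.40), which were -0.20 and -0.39 over coding bases.

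Membrane proteins and cofactors had a median of -0.49 over 18 genes, with 1 higher and 1 lower by a factor of 2 (1 and 5 of 19 summed, median -0.63). Lamp1, a major lysosomal membrane protein, was at 56.0 and 38.6 (-0.54), though at 122 and 38.6 by summed FPKM (-1.66). Psap, the precursor of the saposins, was at 55.4 and 31.2 (-0.83), and at 125 in the tumor Treg values. Atp13a2 was at 1.19 and 0.19 (-2.14). For the vacuolar ATPase, which acidifies the lysosome, 14 of 16 subunits were lower, 1 by a factor of 2 (2 summed), and the median was -0.42. That subunit was Atp6v0c, at 25.3 and 11.7 (-1.10). Atp6v0e was at 17.4 and 12.4, and Atp6v1h, at -1.12 by summed FPKM, was at -0.19 over coding bases.

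The sorting genes, which carry new hydrolases to the lysosome, had a median log2 ratio of 0.24 over 12 genes by the summed measure, with 2 higher and 2 lower by a factor of 2, and of -0.090 over coding bases, with 1 and 1. Lrp1 and Igf2r, the cation-independent mannose 6-phosphate receptor, were at 10.7 and 11.3, and 13.5 and 12.8, over coding bases. By summed FPKM both turned direction, to 32.0 and 23.5 (-0.44) for Lrp1 and 17.8 and 32.8 (0.88) for Igf2r. Gnptg was listed at 2.57 in the Control SMO tumor and at 0 in the other, and Gga3 was at 0.83 and 1.18 (0.47), though at 1.30 and 7.43 by summed FPKM (2.43). Among regulators of lysosomal genes the median was -0.18 over 10 genes, with 1 higher and 1 lower by a factor of 2 (1 and 2 of 11 summed, median -0.22). Mtor was at 1.47 and 1.55, Rptor at 1.95 and 0.99, Lamtor1 at 5.64 and 0.45, and Tfec at 0 and 1.12. Tfeb was not listed in any set. Of 14 other cathepsins, 3 were listed with Control SMO (Ctso, Ctsf and Ctse) and only Ctso with LFPRLR SMO. Ctso was at 3.59 and 0.99 (-1.76) over coding bases but at 4.70 and 5.47 (0.21) by summed FPKM, so that its direction turned. Ctsf was at 1.26 and 0.

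**Figure D4:**
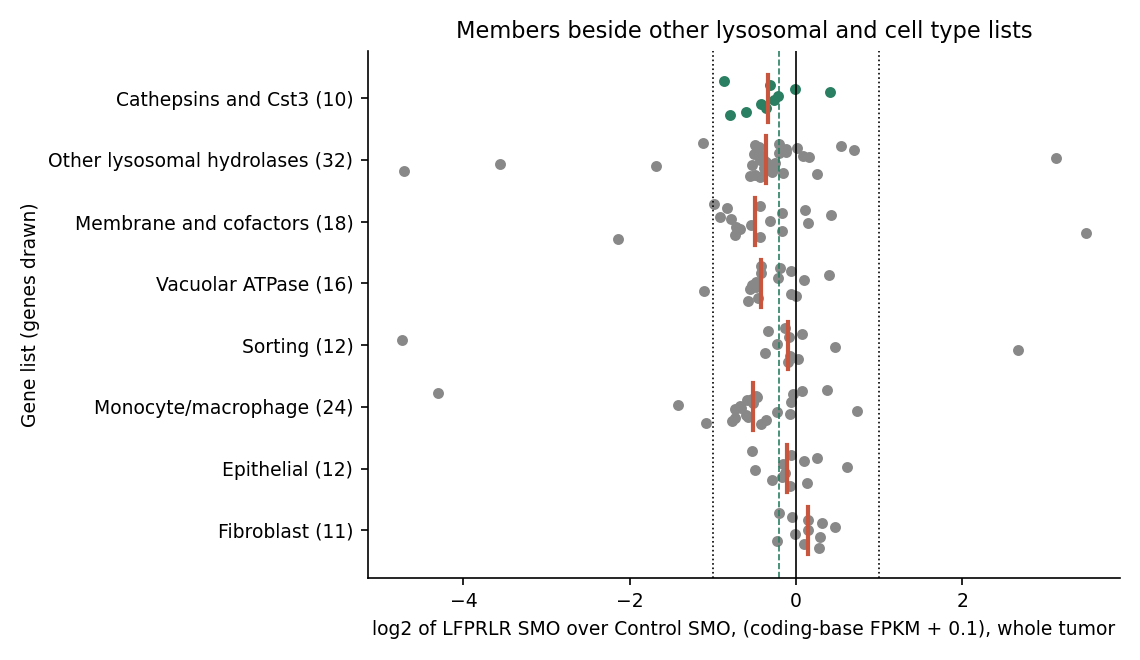
The log2 ratio of LFPRLR SMO over Control SMO in whole tumor by (coding-base FPKM + 0.1) (x axis) for each gene (point) of 8 lists (y axis, with the number of genes that had at least 1 in either library). Red bars are list medians, the dashed line is the median of all genes (-0.20), the solid line is 0 and dotted lines are a factor of 2. The members' median of -0.33 lies beside those of the other lysosomal hydrolases (-0.36) and vacuolar ATPase (-0.42), with macrophage markers at -0.52 and fibroblast markers at 0.15.

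Among the other cell type lists, epithelial markers, which mark the 4T1 cells, had a median of -0.10 over 12 genes, and Krt18 was at 124 and 112. Fibroblast markers had a median of 0.15 over 11 genes, with Col3a1 at 55.2 and 67.5 and Col1a1 at 67.9 and 72.9. Endothelial markers had a median of -0.31 over 8 genes but of 0.15 over 9 genes by summed FPKM, where 2 were lower by a factor of 2. Eng was at 6.68 and 5.04 (17.7 and 5.04 summed) and Flt1 at 2.86 and 2.80 (8.76 and 12.4 summed). Of the 12 neutrophil markers 3 were listed in each tumor, and S100a9 was at 21.4 and 31.6 and S100a8 at 12.7 and 12.4. Of the dendritic cell list 3 of 11 genes were listed, and H2-Ab1 was at a summed FPKM of 23.5 and 16.4 and Itgax at 3.68 and 4.17. Over coding bases H2-Ab1 was at 563 and 16.1 (-5.12). The coding-base measure also counts short and unassigned transcripts, so for a single gene it can lie far from the summed one. Which transcripts made up the 563 was not examined. In whole tumor Tcf7 was the sole T cell marker listed (summed FPKM 0.80 and 4.46), and 2 of 12 Treg markers were listed, of which Ikzf2 was highest by summed FPKM (7.74 and 5.11, -0.59). Over coding bases Ikzf2 was at 0.97 and 1.09 (0.15), and Lrrc32, the other marker listed, at 0.37 and 1.13. Of 8 osteoclast markers, set out because Ctsk is one of the classic osteoclast genes, 4 were listed in whole tumor and the tumor Treg values listed 2. Mmp9 was the highest, at 17.3 and 19.8 in whole tumor against 100.6 among the tumor Treg values, whereas Calcr, Ocstamp, Dcstamp and Oscar were not listed in any set. Over coding bases the median log2 ratio of this list was 0.19 over 3 genes, of which 1 was lower with LFPRLR SMO.

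The tumor Treg file also gives the read depth of each exon, which shows how evenly a member was covered. Cst3, Ctsd and Ctsl each had a first exon at a depth of 0, although the junction after it was listed as spliced. The highest exon depth was 49.5 in Cst3 (exon 2), 81.1 in Ctsd (exon 3) and 61.9 in Ctsl (exon 3), and the last exon of Ctsl was at 13.5. In Ctsb the depth ran from 78.6 in exon 3 down to 19.95 in exon 10, the last. In the main Ctsc transcript it was highest in exon 1, at 104, and lowest in the last exon, at 25.4. A member's single FPKM thus stands for exons that differed in depth.

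For Ctsa, Ctsd and other members a promoter window can be read from RefSeq (GRCm38.p6), covering 250 bases before to 50 after each start. A window was matched for 8 of the 10 members, with a pair of windows for Ctsa. Ctsb and Ctsh were not matched. The windows were searched for CACGTG, the E-box that the TFEB family and other factors bind, and for TCACGTGA, its extended form in many lysosomal genes. Both read the same on either strand, and each TCACGTGA holds a CACGTG. Of all 32851 windows, 7.15% held CACGTG and 0.974% held TCACGTGA. Among the members, Ctsa, Ctsd and Ctsl held CACGTG, and Ctsa and Ctsd held TCACGTGA.

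The 30 bases around this motif are shown for both genes because the assembled transcripts start nearby, with the motif in capitals.

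Ctsa, chr2:164833743-164833772, plus strand, ending at the base before the second start: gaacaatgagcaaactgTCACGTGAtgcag

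Ctsd, chr7:142387908-142387937, minus strand, ending 81 bases before the start: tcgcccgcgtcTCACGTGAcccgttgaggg

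The Ctsa transcripts began 10 bases (Control SMO) and 34 bases (LFPRLR SMO) after that second RefSeq start, and none was assembled from the first. In the tumor Treg values the transcript from the second start was at an FPKM of 13.9 and the one from the first at 0.609. The same window held TCACGTGA again, with its first base at position 5 when the start base is counted as 1. The Ctsd transcripts began at positions -252 (Control SMO) and -153 (LFPRLR SMO) relative to the RefSeq start, so in whole tumor the motif lay inside the assembled first exon. The tumor Treg transcript was listed from -43, but its first exon had a depth of 0, so no reads place its start there. With these motifs Ctsa was at a log2 ratio of -0.61 over coding bases but 0.52 by summed FPKM, and Ctsd was at -0.27 by both. Ctsl, which held CACGTG, was at -0.0083 over coding bases and 1.16 by summed FPKM. A link of the motifs to these ratios was not tested.

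Genes with levels most like those of 3 members were sought over the 3 sets of values, as the Euclidean distance in log2(summed FPKM + 0.1) among 2230 genes with at least 1 in all 3. For Ctsb they were Rack1 (distance 0.26), Cd74 (0.27) and Mif (0.50). Cd74, the MHC class II invariant chain, was at 46.2, 37.4 and 33.99 beside 50.9, 42.6 and 31.2 for Ctsb. For Ctss they were the ribosomal protein genes Rps4x (0.33), Rps3 (0.39) and Fau (0.45), and for Cst3 they were Hist1h3d (0.19), Arpc2 (0.24) and Gpi1 (0.33). In whole tumor the summed FPKM of Ctss adds its pieces, and over coding bases Ctss was at 65.0, 52.5 and 57.3, while Rps4x was at a summed FPKM of 155, 120 and 50.6. With 3 points per gene this is a description of levels.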

How the data were processed

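The authors pooled RNA of 6 mice per group, depleted rRNA and sequenced 4 libraries on an Illumina MiSeq. They deposited transcript lists on mm10: for whole tumor a Cufflinks FPKM with bounds, coverage and a score (not used), and for tumor Treg a StringTie coverage, FPKM and TPM. The headers of both tumor Treg files name the control alignment. Cufflinks (no version), Cuffdiff 2.0.2, StringTie 1.2.3 and HISAT2 2.0.4 are listed in the notes on processing. Read counts are not given in the sources used here, so depth is unknown and no interval is given.

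Transcripts that carried a reference gene name, as most of the members' tumor Treg transcripts did, were assigned by that name. The others were assigned to GENCODE M21 genes by at least 1 shared intron or 50% of exon bases. The deposited FPKM of transcripts of at least 300 bases were summed. Coding-base FPKM was added after the data had been seen, and it had no minimum length and did not require assignment. Genes had at least 1 FPKM in either tumor library. With 1 library per group nothing was tested. Calls are a factor of 2 on log2(FPKM + 0.1). Both measures were run on simulated data, in which both pieces of a broken gene had the FPKM of the whole gene. The deposited pieces of a gene differed in FPKM, so the simulation cannot show how well either measure does on them. Named genes were all members, from each pathway list the 2 genes highest by mean whole tumor summed FPKM and the 2 with the largest summed log2 ratio among those with a mean of at least 1, the highest marker of each cell type list in each library and the 3 genes nearest to Ctss, Ctsb and Cst3. Motifs and sequences were chosen after values were seen. The members and lists were chosen with earlier results of these data known. Python 3.11.15, numpy 2.4.6, pandas 2.3.3 and matplotlib 3.10.9 were used.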

Additional observations from a re-analysis of the deposited data

How the results depend on the processing

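No paired analysis was possible because each group is 1 library. With summed FPKM, 2 members were higher and 1 lower by a factor of 2, and 1908 and 1724 genes in all. The most abundant transcript alone left 0 and 0 members. So did the exon-weighted value (511 and 759 genes), coding-base FPKM (485 and 1030) and the midpoint of the bounds over coding bases (460 and 948), the last 2 added after seeing the data. Rescaling to transcripts of at least 300 bases, and centring on the median gene, each left 0 members lower. Shared introns alone gave 1020 genes higher. A factor of 1.5 gave 3 members and 2737 genes lower, and a factor of 3 gave 0 and 0 members with 1229 and 1066 genes. An FPKM of at least 5 left 859 and 797 genes. TPM over all transcripts gave 10 members higher, 0 lower and 0 lower at all, with 6247 and 3 genes. Transcripts under 300 bases held 99.4% of the Control SMO and 87.2% of the LFPRLR SMO sum in that setting, a shift of the scale by 4.55 (log2).

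The ratio of Ctsa, 0.52 with summed FPKM, was -0.26 with the most abundant transcript, -0.70 with the exon-weighted value, -0.61 with coding-base FPKM and -0.85 with the midpoint. The ratio of Ctsl changed sign with the exon-weighted value (-0.067), coding-base FPKM (-0.0083) and the midpoint (-0.43). That of Ctsc changed sign with the midpoint (0.021), as did that of Ctss (0.023). With TPM over all transcripts every member was above 0 (Ctsc at 3.37). Apart from TPM, Ctsb, Ctsd, Ctsh, Ctsz and Cst3 were lower in all 11 alternatives, at -0.69 to -0.95 for Ctsz and -0.64 to -0.90 for Cst3. None of the 27 alternative tumor Treg values moved by a factor of 1.5, but few of them could have. TPM scales every gene by the same factor, and no member had a tumor Treg transcript under 300 bases. Taking the most abundant transcript alone could change only Ctsa, Ctsc and Ctss. Depth and the variation between mice could not be measured.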
